A study of Mus musculus with 28 samples.

Results

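The L1Md families are a branch of mouse LINE-1 (L1), the retrotransposon that copies itself through an RNA intermediate. They were chosen by name alone, as every entry of class LINE and superfamily L1 whose name starts with L1Md in the deposited table of repeat families, which gave 6 of 539 families: L1Md_A, L1Md_T, L1Md_Gf, L1Md_F, L1Md_F2 and L1Md_F3. A full-length L1 carries a promoter in its own 5′ untranslated region and encodes an RNA-binding protein and a protein with endonuclease and reverse transcriptase activity. The A, T and Gf families are known for copies that can still move, while F, F2 and F3 are their older, inactive relatives, so "young" fits A, T and Gf better than the rest. In the germ line L1 is held down by DNA methylation, by H3K9 methylation and by the piRNA pathway, and primordial germ cells (PGCs, from which sperm and eggs arise) pass through a stage in which most DNA methylation has been erased.

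The cells were PGCs sorted for the surface antigen SSEA1 from male and female mouse gonads at E13.5, a stage of embryonic development. Setdb1 encodes a methyltransferase that deposits trimethylation on lysine 9 of histone H3 (H3K9me3). The knockout (KO) is Setdb1 delta/-, and its controls are 2 heterozygous genotypes, Het1 (delta/+) and Het2 (flox/-), pooled here as Het; the libraries called wild type (WT) are flox/+. Both Het genotypes carry 1 intact allele only, Het1 and KO share the deleted delta allele, and Het2 and KO share the null allele. RNA was measured in 2 KO, 4 Het and 1 WT library of each sex, and H3K9me3 and H3K27me3 (the Polycomb mark) by ChIP-seq in 1 KO and 1 Het (flox/-) library of each sex. A ChIP library for total H3 came from C57BL/6 wild-type males. Neither the Cre driver nor whether a library is 1 embryo or a pool is stated in the labels, so p-values measure the spread between libraries.

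Levels are in RPKM (reads per kilobase of sequence, relative to the reads of the library) and are pooled over all copies of a family, so they do not show which copies are read. Sequencing depth is unknown, and in bulk samples more cells with a transcript and more RNA per cell cannot be told apart. The Setdb1 gene, as a check of the labels, stood at 27.11 and 31.2 RPKM in male KO against 37.53 to 52.05 in male Het, and at 34.65 and 31.28 RPKM in female KO against 38.24 to 58.89 in female Het. The 6 germ cell markers (Ddx4, Dazl, Dppa3, Pou5f1, Nanos3 and Dnd1) were above 0 in all 12 libraries of KO and Het, and summed to 1860 to 2022 RPKM in male KO and 1687 to 2189 in male Het. In females the same sum was 812 to 1107.5 RPKM in KO and 1234 to 1576 in Het, without overlap. Of markers of other gonadal cells, the 5 Leydig genes (all measured) summed to 26.9 to 56.1 RPKM in male KO and 3.42 to 5.32 in male Het, with Cyp17a1 and Cyp11a1 listed at 0 in at least 1 male Het library, and the 4 stromal genes to 29.1 to 41.9 RPKM in female KO and 11.5 to 28.5 in female Het. Sums of Sertoli, pregranulosa, endothelial, macrophage and erythroid markers overlapped between KO and Het in each sex, as did Leydig sums in females and stromal sums in males. Some of these reached higher in female Het: erythroid sums up to 254 RPKM against 40.4 in female KO, and endothelial sums up to 66.8 against 36.5. Sertoli sums were 52.9 to 58.4 RPKM in female KO and 55.7 to 70.2 in female Het. Single genes within sums that overlapped could still separate. Kdr (endothelial) was higher in KO in males (4.46 to 6.23 RPKM, Het 1 to 3.07) and females (6.84 to 10.73, Het 3.06 to 6.77). Nr2f2 and Pdgfra (stromal) were higher in male KO, and Sox9 (Sertoli) and Fst (pregranulosa) in female KO, each without overlap. Dmrt1, most of the Sertoli sum, was lower in female KO without overlap. The endothelial sum was mostly Pecam1, which overlapped in both sexes. The part of such cells in the differences below was not tested.

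The families differ in size and in a deposited value named mappability. L1Md_F2 has 65451 elements in the deposited table, L1Md_T 23234, L1Md_A 16293, L1Md_F3 15614, L1Md_F 5937 and L1Md_Gf 994. The column named mappability is 0.97 for L1Md_A and L1Md_T, 0.96 for L1Md_Gf, 0.89 for L1Md_F3, 0.86 for L1Md_F2 and 0.76 for L1Md_F, against a median of 0.02 over the 101 other L1 families and 0.05 over all 539. It is highest of all in IAPEz-int (0.99), the internal region of a retrovirus with many near-identical copies, and lowest in old repeats, so it runs against the everyday sense of its name. How it was computed is not stated. Reads of nearly identical copies and families can be assigned to one another, so small differences between L1Md families, above all between F2 and F3, are uncertain.

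RNA of the L1Md families was low in every library, and L1Md_T, the largest of the families with active copies, was the most abundant per length in all 14 libraries of KO, Het and WT. L1Md_T stood at 0.21 and 0.689 RPKM in male KO, against 0.28 and 0.426 in male Het1 and 0.12 and 0.423 in male Het2. In females it stood at 0.21 and 0.51 RPKM in KO, against 0.16 and 0.67 in Het1 and 0.32 and 0.61 in Het2. One male KO library lay above the male Het range and the others lay within the range of their sex, so the groups overlap. The male WT library held 1.202 RPKM of L1Md_T, above every other library, and the female WT library 0.49.

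**Figure D1:**
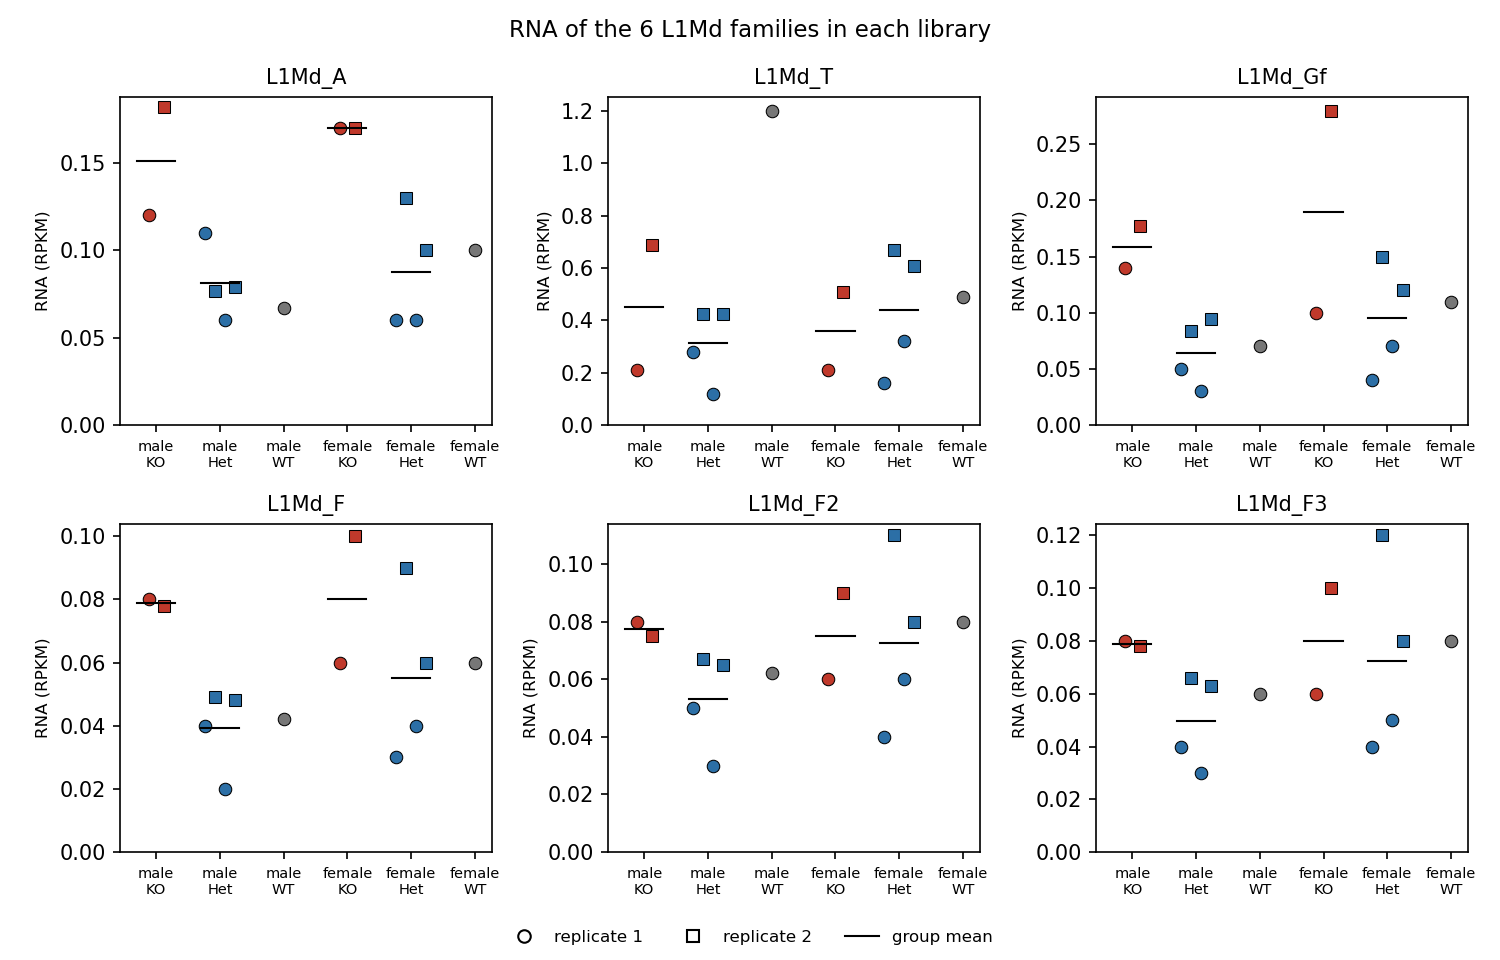
RNA of each L1Md family in RPKM (vertical axes, linear from 0, a different scale per family) by sex and genotype. Each point is 1 library (red KO, blue Het, grey WT), circles are replicate 1 and squares replicate 2, and the line is the group mean. In males the 2 KO points lie above the 4 Het points in every family except L1Md_T; in females this holds for L1Md_A.

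L1Md_A and L1Md_Gf were the families that rose in KO germ cells over both sexes. L1Md_A, named for its A-type promoter repeats, stood at 0.12 and 0.182 RPKM in male KO, against 0.11 and 0.077 in Het1 and 0.06 and 0.079 in Het2. In females it stood at 0.17 RPKM in both KO libraries, against 0.06 and 0.13 in Het1 and 0.06 and 0.1 in Het2. Both KO libraries were above all 4 Het libraries in each sex, an order found in 34.9% of all families in males, 9.28% in females and 6.86% in both. L1Md_Gf, which has the fewest copies of the 6, stood at 0.14 and 0.177 RPKM in male KO, against 0.05 and 0.084 in Het1 and 0.03 and 0.094 in Het2. Female KO libraries had 0.1 and 0.28 RPKM of L1Md_Gf, against 0.04 and 0.15 in Het1 and 0.07 and 0.12 in Het2, so that the first female KO library lies within the Het range.

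The difference between KO and Het was tested by limma on log2(RPKM + 0.1) with all families fitted together, a scale that understates the change of families this low. Of the 6 L1Md families, 4 passed the filter of 0.1 RPKM in at least 2 libraries, and with the sexes averaged 2 of these 4 rose and 0 fell, at an adjusted p below 0.05; of all 528 families tested, 36 rose and 0 fell, which is 6.82%. For L1Md_Gf the log2 difference was 0.60 with an SE of 0.18 (limma, adjusted p = 0.0318), and for L1Md_A it was 0.50 with an SE of 0.16 (limma, adjusted p = 0.0441). L1Md_F3 stood at 0.17 (limma, adjusted p = 0.734) and L1Md_T at 0.08 with an SE of 0.27 (limma, adjusted p = 0.83). The median of the 4 was 0.34, against 0.17 over all families tested and 0.15 over the 99 other L1 families tested, of which 0 passed in either direction (2 at an unadjusted p under 0.05). In means, L1Md_A had 0.151 ± 0.0438 RPKM in male KO (SD, n = 2) and 0.0815 ± 0.0208 in male Het (n = 4), a ratio of 1.85, and L1Md_Gf had 0.159 ± 0.0262 RPKM in male KO and 0.0645 ± 0.0297 in male Het, a ratio of 2.46. IAPEz-int, in the same libraries, averaged 2.77 ± 0.764 RPKM in male KO and 0.315 ± 0.12 in male Het.

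Most repeats shifted the same way. Over both sexes 511 of 528 families had a positive difference, and the median over families was 0.29 in males and 0.05 in females. When each library was centred on its median, L1Md_Gf kept a difference of 0.40 (limma, adjusted p = 0.0875) and L1Md_A of 0.30 (adjusted p = 0.347), neither passing, while L1Md_T and L1Md_F3 turned to -0.12 and -0.032; 18 families of 528 (3.41%) then rose. After centring, 0 of the 4 passed in males (1 at an unadjusted p under 0.05, by limma), beside 0.758% of families, and 0 in females (2 unadjusted), beside 1.52%.

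Both calls also depended on which libraries entered. L1Md_Gf no longer passed by limma without male KO replicate 1 (adjusted p = 0.0703) or 2 (0.189), without female KO replicate 2 (0.604), without male Het2 replicate 1 (0.0574) or without female Het2 replicate 1 (0.0507). L1Md_A passed without male Het1 replicate 1 (limma, adjusted p = 0.0473) or without female Het1 replicate 2 (0.0071). Without any of the other 10 libraries it did not pass: the adjusted p was 0.0562 and 0.307 without male KO replicate 1 and 2, 0.122 and 0.206 without female KO replicate 1 and 2, 0.0821 without male Het1 replicate 2, 0.0866 and 0.0789 without male Het2 replicate 1 and 2, 0.0642 without female Het1 replicate 1, and 0.0890 and 0.0593 without female Het2 replicate 1 and 2. The size of the L1Md_Gf difference over both sexes ran from 0.37 without female KO replicate 2 to 0.83 without female KO replicate 1, and that of L1Md_A from 0.41 when replicate 2 of male KO was left out to 0.59 when replicate 1 was. With Het1 alone as control neither passed (limma, adjusted p = 0.301 for L1Md_Gf and 0.838 for L1Md_A), and with Het2 alone L1Md_Gf did (0.0417, against 0.0552 for L1Md_A).

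Within a sex no L1Md family passed. In males the log2 differences were 0.67 for L1Md_Gf (SE 0.25, adjusted p = 0.245 by limma), 0.46 for L1Md_A (adjusted p = 0.474), 0.34 for L1Md_T (0.529) and 0.26 for L1Md_F3 (0.520), 2 of the 4 being under 0.05 before adjustment; 13 of 528 families (2.46%) passed. In females they were 0.54 for L1Md_A (SE 0.22, adjusted p = 0.416 by limma) and 0.54 for L1Md_Gf (adjusted p = 0.601 by limma). L1Md_F3 stood at 0.08 and L1Md_T at -0.18 in females (adjusted p = 0.999 by limma for each). Again 2 of the 4 were under 0.05 before adjustment, and 10 of 528 families (1.89%) passed. The log2 difference of L1Md_Gf in females was 0.072 when KO replicate 2 was left out and 0.998 when KO replicate 1 was. The female minus male difference of the effect passed in 0 of the 4 and in 0% of all families (3 of 528 and 0 of the 4 at an unadjusted p under 0.05), with -0.53 for L1Md_T (SE 0.54). Between female and male Het cells 0 of the 4 differed, as did 0% of all families (18 of 528 and 0 of the 4 at an unadjusted p under 0.05), and L1Md_T had the highest female minus male value of the 4, 0.34 (SE 0.31).

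**Figure D2:**
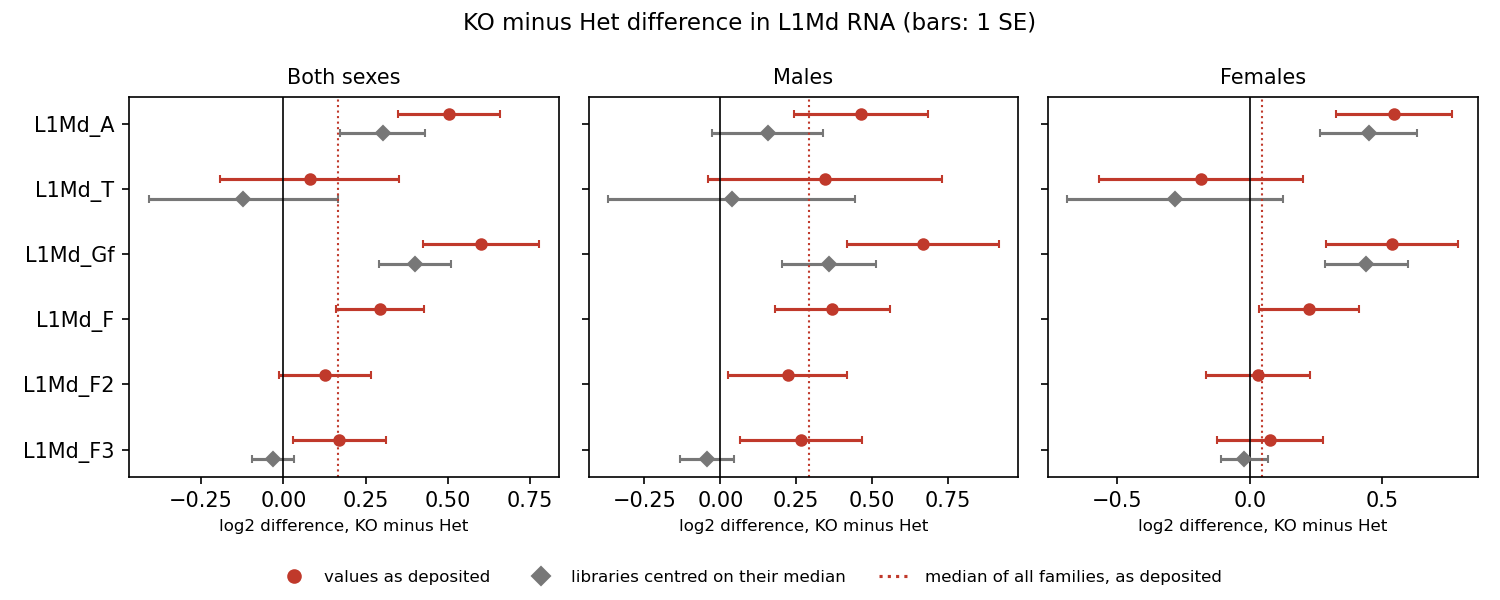
Log2 difference in RNA, KO minus Het (horizontal axis; bars are 1 SE), for the 6 L1Md families over both sexes and in each sex. Red circles use the values as deposited without a filter, grey diamonds the 4 families that pass the filter after centring each library on its median, and the dotted line is the median of all 539 families. The red circles of L1Md_A and L1Md_Gf lie to the right of the dotted line in all 3 panels; the line is no reference for the centred values.

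The older F families stayed below the threshold of the test. L1Md_F, L1Md_F2 and L1Md_F3 had 0.06 to 0.1 RPKM in the 4 KO libraries and 0.02 to 0.12 in the 8 Het libraries. L1Md_F and L1Md_F2 did not reach the filter, and without it L1Md_F had a difference of 0.29 over both sexes (SE 0.13, adjusted p = 0.279 by limma) and L1Md_F2 of 0.13 (adjusted p = 0.735), beside the 0.17 of L1Md_F3. In that fit 2 of 6 L1Md families and 6.68% of all families passed over both sexes, 0 of 6 and 2.23% in males (2 of the 6 at an unadjusted p under 0.05) and 0 of 6 and 1.86% in females (2 unadjusted). In males both KO libraries stood above all 4 Het libraries for all 3 (0.078 and 0.08 RPKM in KO against 0.02 to 0.049 in Het for L1Md_F), as in 34.9% of all families. In females the groups overlap for all 3. Most values are given to 2 decimals, so that an entry of 0.03 can stand for anything from 0.025 to 0.035.

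The families followed one another to different degrees across the 12 KO and Het libraries, which share library, scaling and cell preparation. L1Md_F2 and L1Md_F3 were the closest pair (Pearson r = 0.98 of log2 values), and L1Md_A and L1Md_T the most distant (r = 0.46). Outside the L1Md families, the most similar profile to L1Md_A was that of RLTR10A (r = 0.98), then RLTR9E and IAPLTR3-int, all from the ERVK class of retroviruses. For L1Md_Gf these were MuRRS-int (r = 0.97), RLTR44-int and RLTR45, and for L1Md_T RLTR19C (r = 0.93), MURVY-int and IAPLTR3.

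The replicate number of a library went with its L1Md_T level and, less strongly, with its L1Md_Gf level. In all 6 groups of sex and genotype the library numbered 2 held more L1Md_T RNA than the library numbered 1, by 0.47 (male Het1) to 1.57 (female Het1) on the log2 scale and by 1.35 in male KO and 0.98 in female KO. The median gap over all families ran from -0.16 to 0.74 in the same groups. In each group the gap of L1Md_T exceeded that of 77.9% (male Het1) to 99.6% (male Het2) of families. The 0.1 RPKM added before the log2 shrinks gaps more at low levels, so this order depends in part on abundance. L1Md_F3, for example, stood at 0.04 and 0.12 RPKM in female Het1, a gap of 0.65 on this scale. L1Md_Gf was also higher in the library numbered 2 in all 6 groups, by 0.21 (male KO) to 0.93 (female KO). In female Het2 its gap of 0.37 was below the median gap of 0.42. L1Md_A had gaps of -0.25 to 0.52. KO and Het of each sex held equal shares of libraries of either number. Compared within a number, L1Md_T differed between KO and Het by 0.10 (number 1) and 0.59 (number 2) in males and by -0.09 and -0.28 in females. In the same order L1Md_A differed by 0.26 and 0.66 in males and 0.75 and 0.33 in females, and L1Md_Gf by 0.78 and 0.55 in males and 0.37 and 0.70 in females, so that both were higher in KO in each sex and number. The median over families was 0.55 and 0.01 in males and 0.17 and -0.08 in females, so L1Md_A in males numbered 1 lay below the median of families.

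**Figure D3:**
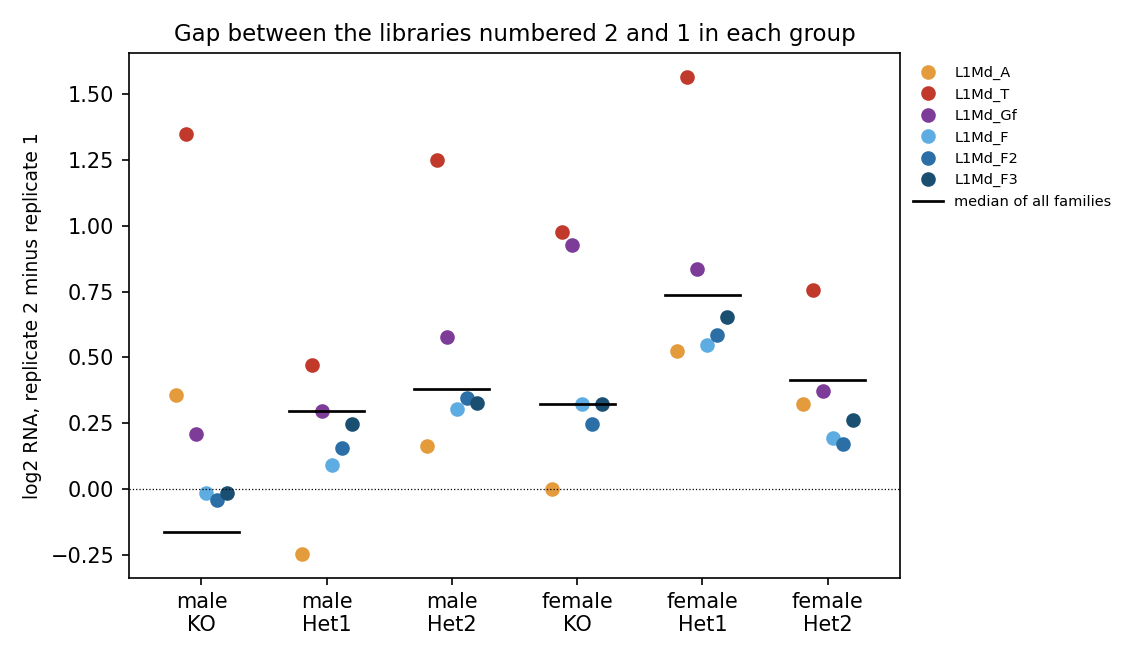
Log2 difference in RNA between the library numbered 2 and the library numbered 1 (vertical axis) in each of the 6 groups. Points are the L1Md families and the black bar is the median of all 539 families. L1Md_T, in red, lies above the bar in every group, between 0.47 and 1.57.

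H3K9me3 was above the median of repeats on all 6 L1Md families in control cells, and it was highest on L1Md_F and L1Md_Gf. In male Het cells the mark stood at 0.94 RPKM on L1Md_F, 0.8 on L1Md_Gf, 0.58 on L1Md_A, 0.57 on L1Md_F2 and L1Md_F3 and 0.55 on L1Md_T, against a median of 0.18 over all families. Female Het cells had the same leading families, with 0.73 RPKM on L1Md_F and 0.6 on L1Md_Gf, and 0.48 to 0.52 on the remaining 4. Relative to total H3 of wild-type males, H3K9me3 in male Het was 3.35-fold (L1Md_F2) to 7.27-fold (L1Md_Gf), beside a median of 0.533 over the other L1 families, 0.8 over all families and 11.1 over the 16 IAP families. Total H3 itself was low on L1Md_Gf (0.11 RPKM) and 0.14 to 0.17 elsewhere, against a median of 0.21, which raises these ratios.

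In male KO cells H3K9me3 was lower than in male Het on all 6 families, and in female KO cells it was nearly the same as in female Het on 4 of them. With 1 library per sex and genotype these are values without a test. On L1Md_F the mark stood at 0.58 RPKM in male KO and 0.94 in male Het (log2 ratio -0.61, after adding 0.1), and at 0.62 in female KO and 0.73 in female Het (-0.21). On L1Md_Gf it stood at 0.56 in male KO and 0.8 in male Het (-0.45), and at 0.56 in female KO and 0.6 in female Het (-0.08). L1Md_A had 0.51 in male KO and 0.58 in male Het, and 0.52 RPKM in both female libraries. L1Md_T had 0.47 in male KO and 0.55 in male Het, and 0.48 in both female libraries. L1Md_F2 and L1Md_F3 had 0.45 and 0.47 in male KO and 0.57 each in male Het, and were slightly higher in female KO (0.52 and 0.53) than in female Het (0.51 each), an order of signs found in 2.41% of all families. No L1Md family reached a 2-fold difference in both sexes, and neither did any of the 102 families at 0.5 RPKM or more in KO or Het of both sexes (0%).

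**Figure D4:**
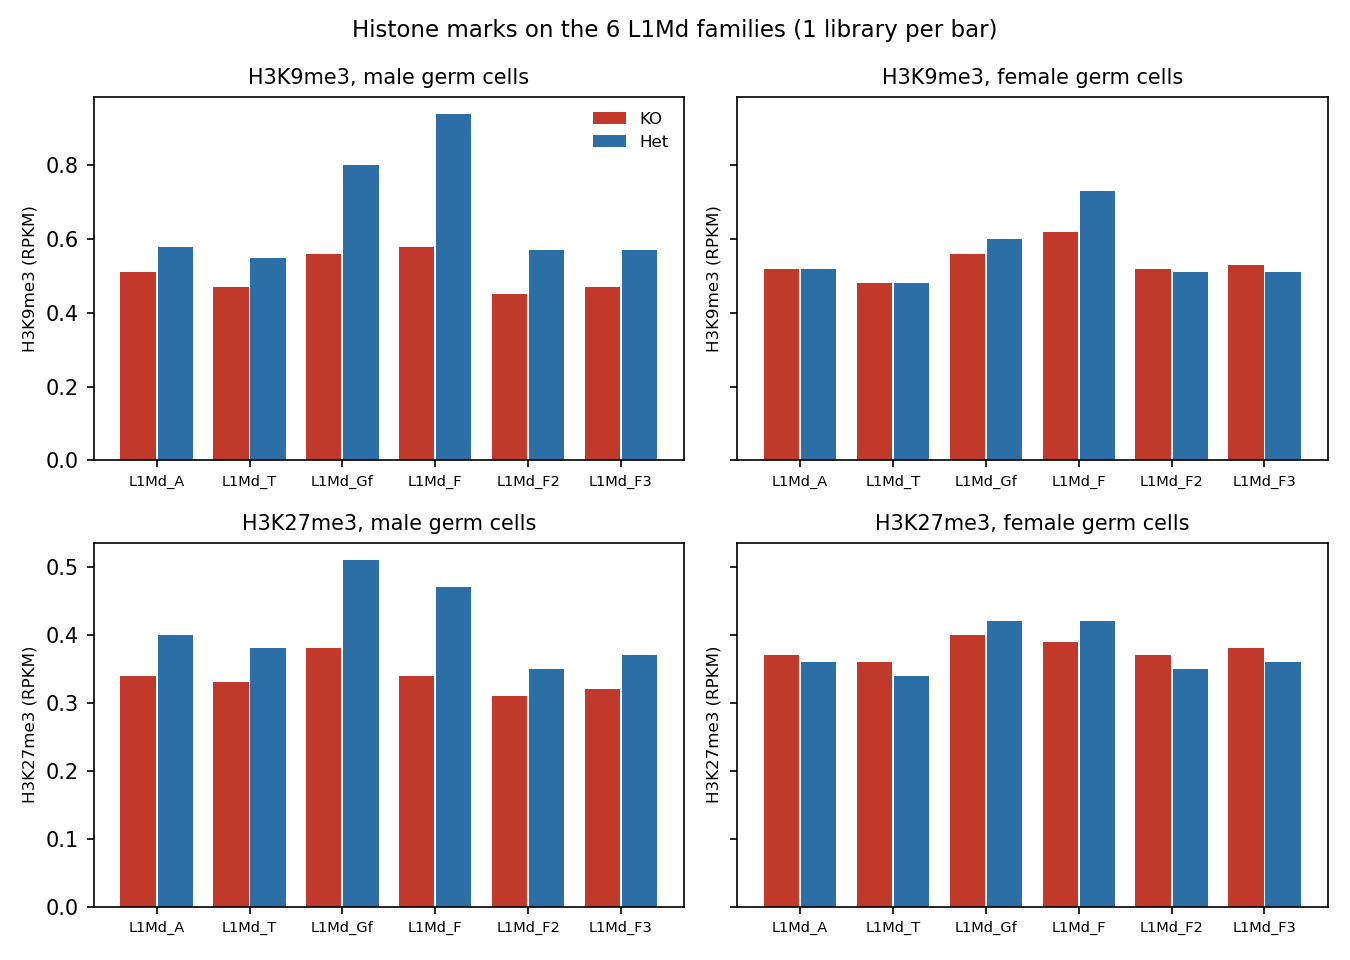
H3K9me3 (top) and H3K27me3 (bottom) in RPKM on the 6 L1Md families, in males (left) and females (right); red bars are the KO library and blue bars the Het library. In males every red bar is lower than its blue bar; in females the H3K9me3 bars differ on L1Md_F and L1Md_Gf and are within 0.02 RPKM of each other on the other 4.

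L1Md_F and L1Md_Gf, the families with most H3K9me3 in Het, had the lowest log2 ratios of the 6. The Het value is the denominator of that ratio, so the order of ratios is not independent of the Het level. Whether the order goes beyond this dependence was not tested. The 6 families lay closer together in KO than in Het, which rests on the same values. The range of H3K9me3 between the lowest and the highest of the 6 was 0.13 RPKM in male KO and 0.39 in male Het, and 0.14 in female KO and 0.25 in female Het. L1Md_F stayed the highest in each of the 4 libraries. Even in KO, the lowest L1Md family had more H3K9me3 than 80.9% of all families in males and 80.3% in females.

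Set beside other marked repeats, L1Md_F and L1Md_Gf had some of the lowest ratios in males, and all of the L1Md families lay in the upper part of the range in females. At 0.5 RPKM or more in KO or Het of both sexes stood 5 of the 6 (L1Md_T falls just short in females, at 0.48), and all 5 were lower in male KO, as were 93 of 102 families (91.2%). In females 2 of the 5 were lower in KO, against 92 of 102 families (90.2%). Among these 102 families, L1Md_F had the largest fall in males and L1Md_Gf the 7th largest, whereas in females they ranked 75th and 89th, and L1Md_A, L1Md_F2 and L1Md_F3 ranked 93rd, 97th and 98th. The log2 ratio was higher in females than in males for 5 of 5 L1Md families, for 24 of 102 families (23.5%) and for 0 of 16 IAP families. The 1 other L1 family at this level, L1VL1, also had a higher ratio in females (-0.16) than in males (-0.43), and below the level L1VL2 (-0.13 in females, -0.47 in males) and L1VL4 (-0.13 and -0.56) did too, these 3 being named after their values were seen. Over all levels the female ratio was higher for 36 of 101 other L1 families and 21.5% of all families. The median log2 ratio over the 102 families was -0.18 in males and -0.32 in females, against -0.28 and 0.00 for the 5 L1Md families. Over all 539 families, many with little of the mark, 21.7% were lower in male KO and 28.4% in female KO, with median log2 ratios of 0.14 and 0.05.

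**Figure D5:**
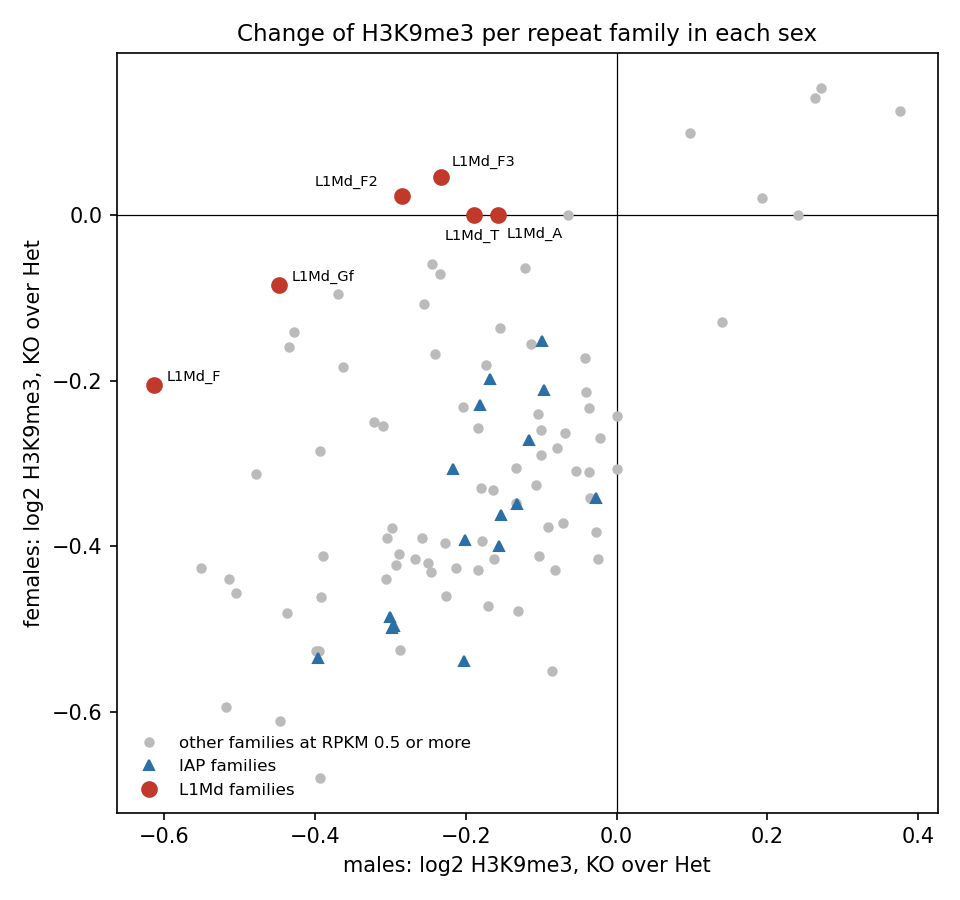
Log2 ratio of H3K9me3, KO over Het, per repeat family in males (horizontal axis) and females (vertical axis), after adding 0.1 RPKM. Red circles are the 6 L1Md families, blue triangles the 16 IAP families, and grey circles the other families at 0.5 RPKM or more in KO or Het of both sexes. All 6 L1Md families have a higher ratio in females than in males, with L1Md_F at -0.61 in males and -0.21 in females.

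H3K27me3 on the L1Md families moved as on most repeats. It stood at 0.31 to 0.38 RPKM in male KO and 0.35 to 0.51 in male Het, and all 6 families were lower in male KO, as were 67% of all families. In females it stood at 0.36 to 0.4 RPKM in KO and 0.34 to 0.42 in Het, and 2 of the 6, L1Md_F and L1Md_Gf, were lower in KO, against 23.9% of all families. The lowest log2 ratios were those of L1Md_F (-0.37 in males, -0.09 in females) and L1Md_Gf (-0.35 and -0.06), and the other 4 were at -0.18 to -0.13 in males and 0.03 to 0.06 in females. The ratio was higher in females than in males for 6 of 6 L1Md families and for 94.2% of all families, and 4 of the 6 were lower in male KO and higher in female KO, as were 37.1% of all families. Families at 0.5 RPKM or more in KO or Het of both sexes had median ratios of -0.33 in males and -0.21 in females, so L1Md_F and L1Md_Gf lay near the median of marked families in males. No L1Md family reached 0.5 RPKM in both sexes, so none could count as past 2-fold, and 0 of the 66 families at that level were (0%); of those 66, 100% were lower in male KO and 98.5% in female KO.

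In males the 2 families with the lowest H3K9me3 ratios, L1Md_F and L1Md_Gf, also had the highest ratios of mean RNA of the 6. On the log2 scale of the fit without a filter this order did not hold in males, with L1Md_Gf at 0.67, L1Md_A at 0.46 and L1Md_F at 0.37. L1Md_F did not reach the filter for RNA. A link between the mark and RNA was not tested. In females L1Md_A was high in RNA with no difference in the mark. L1Md_F had 0.079 ± 0.00141 RPKM of RNA in male KO (SD, n = 2) and 0.0393 ± 0.0135 in male Het (n = 4), a ratio of 2.01, beside the 2.46 of L1Md_Gf, 1.85 of L1Md_A, 1.59 of L1Md_F3, 1.46 of L1Md_F2 and 1.44 of L1Md_T. L1Md_A, whose H3K9me3 was 0.52 RPKM in both female libraries, had 0.17 RPKM of RNA in both female KO libraries and 0.0875 ± 0.034 in female Het (n = 4). MMERVK10C-int, an endogenous retrovirus whose log2 ratios of H3K9me3 were -0.32 in males and -0.25 in females, had 1.98 ± 1.78 RPKM of RNA in male KO and 0.105 ± 0.00991 in male Het.

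The genes that control L1 were measured in the same libraries. Of 37 listed genes 36 were found and 35 passed the filter of 1 RPKM in 2 libraries. Over both sexes 0 rose and 0 fell by limma on log2(RPKM + 1), beside 141 of 13518 genes (1.04%). At an unadjusted p under 0.05 by limma stood 10 of the 36 entries tested (Atf7ip has 2), beside 1708 of the 13518 genes, a smaller share. Whether the list differs from all genes was not tested. Setdb1 had a log2 difference of -0.54 (adjusted p = 0.0783 by limma). Its cofactor gene Atf7ip stood at 0.56 and 0.46 in its 2 entries (adjusted p = 0.0976 and 0.209), and Trim28, which links zinc finger proteins to Setdb1, at 0.00 (0.998). The genes of the HUSH complex, which silences L1 together with Setdb1, were at 0.03 (Fam208a), -0.08 (Mphosph8) and -0.04 (Pphln1), and Morc2a, its ATPase partner, at 0.31 (adjusted p = 0.510). In the piRNA pathway Gtsf1 stood at 1.56 (adjusted p = 0.215), Tdrd9 at 1.02 (0.247), Mov10l1 at 0.74 (0.239), Mael at 0.69 (0.355) and Piwil2 at -0.27 (0.592). Of the other piRNA genes listed, Tdrd12 stood at 0.16, Asz1, Piwil4 and Exd1 between 0.0037 and -0.0033, Tdrd1 at -0.19, Ddx4 at -0.27 and Pld6 at -0.30, with adjusted p between 0.346 and 0.999 by limma. The DNA methyltransferase gene Dnmt3b stood at 0.52 (0.125). The median over the list was 0.02, against 0.05 over all genes tested.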

How the data were processed

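RNA-seq and ChIP-seq values came from tables deposited by the authors, all in RPKM, per the file headers. One deposited table pools RPKM over the copies of 539 repeat families in 23 libraries, with a deposited fraction named mappability and, as other unit, the number of elements. The other gives RPKM per gene. BWA, SAMtools (for RNA) and the mm9 build are named in the submitters' processing notes; the sources used here give no versions, no counter and no rule for reads with many matches. The DNA methylation, soma and C57BL/6 RNA libraries were not used for repeats. Sequences of the families are not printed.

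The 12 KO and Het libraries were fitted as 4 group means with limma 3.58.1 in R 4.3.3 (eBayes with trend; two-sided; Benjamini-Hochberg over all features; threshold 0.05). Repeats entered as log2(RPKM + 0.1) if 2 or more libraries reached 0.1 RPKM, genes as log2(RPKM + 1) if 2 or more reached 1 RPKM. ChIP ratios had 0.1 added and were described without a test, 2-fold in both sexes being the limit at 0.5 RPKM. WT libraries stayed outside the fits. All L1Md families are named; other families by correlation (3 each for L1Md_A, L1Md_T and L1Md_Gf); of the control genes, which were matched by symbol or Ensembl identifier, Setdb1 and those past the threshold, the rest being chosen after their values were seen. Members and lists were chosen with earlier results of these data known. The fits were tested on simulated data. Alternatives covered the pseudocount, the filter, scaling, controls, robust fitting, a replicate block and leaving out each library.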

Additional observations from a re-analysis of the deposited data

Results flagged for a closer look

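L1Md_T RNA in the male WT library, which is outside the tests, stood at 1.202 RPKM, above each of the 4 male Het libraries (0.12 to 0.426 RPKM); it is a single library.

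The change of a mark between KO and Het had opposite signs in the sexes for some families, with 1 library per sex and genotype and no test of the difference. For H3K9me3 the female minus male difference of log2 ratios was 0.31 for L1Md_F2 and 0.28 for L1Md_F3. For H3K27me3 it was 0.22 for L1Md_A, 0.20 for L1Md_F2, 0.22 for L1Md_F3 and 0.22 for L1Md_T. In each of these 6 cases the KO library was lower in males and higher in females, as in 2.41% of all 539 families for H3K9me3 and in 37.1% for H3K27me3, where such signs are thus common. The female gaps were at most 0.02 RPKM, near the 2 decimals of the deposited values. Among the 4 Het libraries of a sex, 0 of 12 sets of L1Md RNA values held a library set apart by Dixon's criterion, which chance meets in about 1 of 20 independent sets. Each set mixes libraries of replicate numbers 1 and 2, whose levels mostly differ, and sets of the same sex share their libraries. The count of 0 therefore says little about single libraries.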

How the results depend on the processing

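Over both sexes 2 L1Md families, L1Md_A and L1Md_Gf, passed, and 2 did under a pseudocount of 0.05 or 1, without a filter and with robust fitting. The count was 0 with a filter of 0.5 RPKM (1 L1Md family tested), median centring, quantile normalization, Het1 as the control or no filter with median centring, and 1 with Het2 as the control. It ran from 0 to 2 when single libraries were left out. Of all families, 36 passed in the reported fit, 11 with the filter of 0.5 RPKM, 18 with median centring, 17 higher and 5 lower with quantile normalization and 9 with Het1 as the control. In males and in females the count stayed 0 under these settings. Among control genes 0 passed, 1 with median centring (Setdb1), and 0 to 2 when single libraries were left out: 2 without male Het1 replicate 1 (Atf7ip and Gtsf1) and 2 without female Het2 replicate 1 (Setdb1 and Morc2a).

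Directions turned for families that did not pass. With median centring L1Md_F3 was -0.032 over both sexes, -0.043 in males and -0.021 in females, and L1Md_T -0.12 over both. With quantile normalization L1Md_F3 was -0.052, -0.015 and -0.088, and L1Md_T -0.15 over both sexes and -0.040 in males. Without a filter and with median centring, a setting chosen after seeing the data, L1Md_F3 was -0.033, -0.045 and -0.020 and L1Md_T -0.12 over both. With single libraries left out, L1Md_T ran from -0.26 to 0.42 over both sexes, from -0.33 to 1.02 in males and from -0.67 to 0.30 in females, and L1Md_F3 in females from -0.018 to 0.24. The cause was not tested. The ChIP counts stayed 0 under the alternatives, 1.5-fold included.

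The labels do not say that a replicate number marks a shared source. The gap between the libraries numbered 2 and 1 correlated between groups by -0.14 to 0.67 over families (median 0.45). Of 15 pairs of groups 14 were positive and 13 over 0.1. Over genes the correlations ran from -0.04 to 0.56 (median 0.30), with 14 of 15 over 0.1. The gaps thus mostly went together, while what the number marks is not known and the reported fit has no block for it. With the number as a replicate block, the count over both sexes stayed 2 (limma, adjusted p = 0.00046 for L1Md_Gf and 0.00395 for L1Md_A), 1 family passed in males (L1Md_Gf, 0.0148), 1 control gene passed (Mov10l1, 0.0404) and 64 of all families passed. With the block and median centring, also chosen after seeing the data, 1 passed (L1Md_Gf, 0.0356), with L1Md_F3 at -0.032, -0.043 and -0.021 and L1Md_T at -0.12.

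The main limits are the 2 KO libraries per sex, single ChIP libraries, RNA levels mostly under 0.3 RPKM given to 2 decimals, unknown depth and reads shared between near-identical families.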
